A study of Homo sapiens with 3 samples.

Results

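The 10 genes SPRY1, SPRY2, SPRY4, SPRED1, SPRED2, DUSP1, DUSP4, DUSP5, DUSP6 and DUSP10 are feedback regulators of growth factor and MAP kinase signalling. They were chosen by symbol, with earlier results of these data known. All 10 were measured, by 22 of the 41097 probe sets that carry exactly 1 gene symbol on the Affymetrix HG-U133 Plus 2 array, and they are 10 of 19775 genes in all. The samples were 3 cultures of MDA-MB-231, an established human breast cancer line of mesenchymal type, generally regarded as lacking the oestrogen receptor alpha. One culture received 1 µM of ERα17p, a peptide derived from that receptor, one received 1 µM of the oestrogen estradiol, and the vehicle culture received 0.1% ethanol. Each treatment lasted 3 h and followed 4 h in medium whose 10% serum had been stripped of steroids with charcoal, which all 3 cultures shared. What the peptide was dissolved in is not stated in the labels used here. There was 1 array per group, so no difference has a replicate check, no test was possible and no p-value is given.

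Sprouty and SPRED proteins and the dual-specificity phosphatases (DUSP) restrain the cascade that runs from growth factor receptors through RAS and RAF to the kinase ERK. Sprouty and SPRED proteins act near the receptor, RAS and RAF, and the phosphatases remove the activating phosphates from the MAP kinases ERK, p38 and JNK. Many of these genes are themselves induced by the kinases they inhibit, so their transcripts are often read as a record of pathway activity. MDA-MB-231 cells are known for constant signalling through this cascade.

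All values are on the log2 scale and had been centred within each probe set, on a reference that is nowhere described. A value of 0 is that reference, and 7 of the 22 probe sets were exactly at it on at least 1 array. Levels of different genes therefore cannot be compared, it is unknown which probe sets were above background, and the cell line could not be checked against its markers. In RNA from whole cultures, fewer cells with a transcript and less transcript per cell cannot be told apart. A gene's difference between 2 arrays is the median over its probe sets, and it was counted as higher or lower from 1.5-fold, which is 0.585 on the log2 scale. The only gauge at hand is the spread between probe sets of a gene. Probe sets of a gene share the cultures and arrays, so this spread does not measure error between cultures or between arrays. The median range, over 10523 genes with at least 2 probe sets, was 0.58 for ERα17p minus vehicle and 0.59 for estradiol minus vehicle. For ERα17p minus estradiol it was 0.40.

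The vehicle array differed from both treated arrays in RNAs that were added to the samples and in its spread. Labelling spikes had medians of 0.21 with ERα17p, 0.20 with estradiol and -1.60 with vehicle (27 probe sets). Hybridisation spikes had medians of -0.06 with ERα17p, 0.09 with estradiol and 0.89 with vehicle (18 probe sets). The SD over all probe sets was 0.241 with ERα17p, 0.260 with estradiol and 0.494 with vehicle. For 18S ribosomal RNA the median difference from the vehicle array was 0.67 with ERα17p and 0.11 with estradiol (3 probe sets). Both comparisons with vehicle use that 1 array, so their values below are not independent of each other. The part of the vehicle array in the members' differences was not tested.

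Set against vehicle, 4 members were at least 1.5-fold higher on both treated arrays in every probe set that measured them. They were SPRY2, SPRY4, SPRED1 and DUSP6, with gene medians of 1.73-fold to 2.51-fold. SPRY2 and SPRY4 had 1 probe set each, and the share of all genes that meet the same condition was not counted. For SPRY4 the 1.5-fold difference did not hold after quantile normalisation, and for DUSP6 it did not hold in 208892_s_at for estradiol. That probe set lay below the SPRY4 probe set on the estradiol array and above it on the vehicle array, an order that quantile normalisation keeps. The gene medians of SPRY2, SPRED1 and DUSP6 stayed past 1.5-fold. DUSP10 lay above vehicle in both of its probe sets, by a median of 1.75-fold with ERα17p and 1.43-fold with estradiol, the second inside the limit. DUSP1 and DUSP5 were the members on the low side. In SPRY1, SPRED2 and DUSP1 the probe sets of the gene disagreed, with ranges of 1.45 to 2.34 on the log2 scale. Between the treated arrays no member differed by 1.5-fold.

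Counted over genes, 5 of 10 members were at least 1.5-fold higher with ERα17p than with vehicle (SPRY2, SPRY4, SPRED1, DUSP6 and DUSP10), against 9.56% of all genes. One member, DUSP5, was at least 1.5-fold lower, against 8.82% of all genes. On the estradiol array 4 of 10 were higher (SPRY2, SPRY4, SPRED1 and DUSP6), against 10.6% of all genes, and DUSP1 alone was lower, against 8.42%. The median of the 10 members was 0.61 for ERα17p and 0.46 for estradiol, beside 0.0021 for ERα17p and 0.0022 for estradiol over all genes. After quantile normalisation of the deposited values the member median was 0.44 for ERα17p, with 4 members higher and 0 lower. For estradiol it was 0.40, with 3 higher and 1 lower. Of all 19775 genes, 1677 were then higher and 1489 lower for ERα17p, and 1924 higher and 1239 lower for estradiol. With the deposited centre in place of the vehicle array the medians were 0.097 for ERα17p and 0.048 for estradiol. No member was then past 1.5-fold in either direction. Few genes were in that setting: of 19775, 98 were higher and 125 lower for ERα17p, and 254 higher and 102 lower for estradiol.

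**Figure D1:**
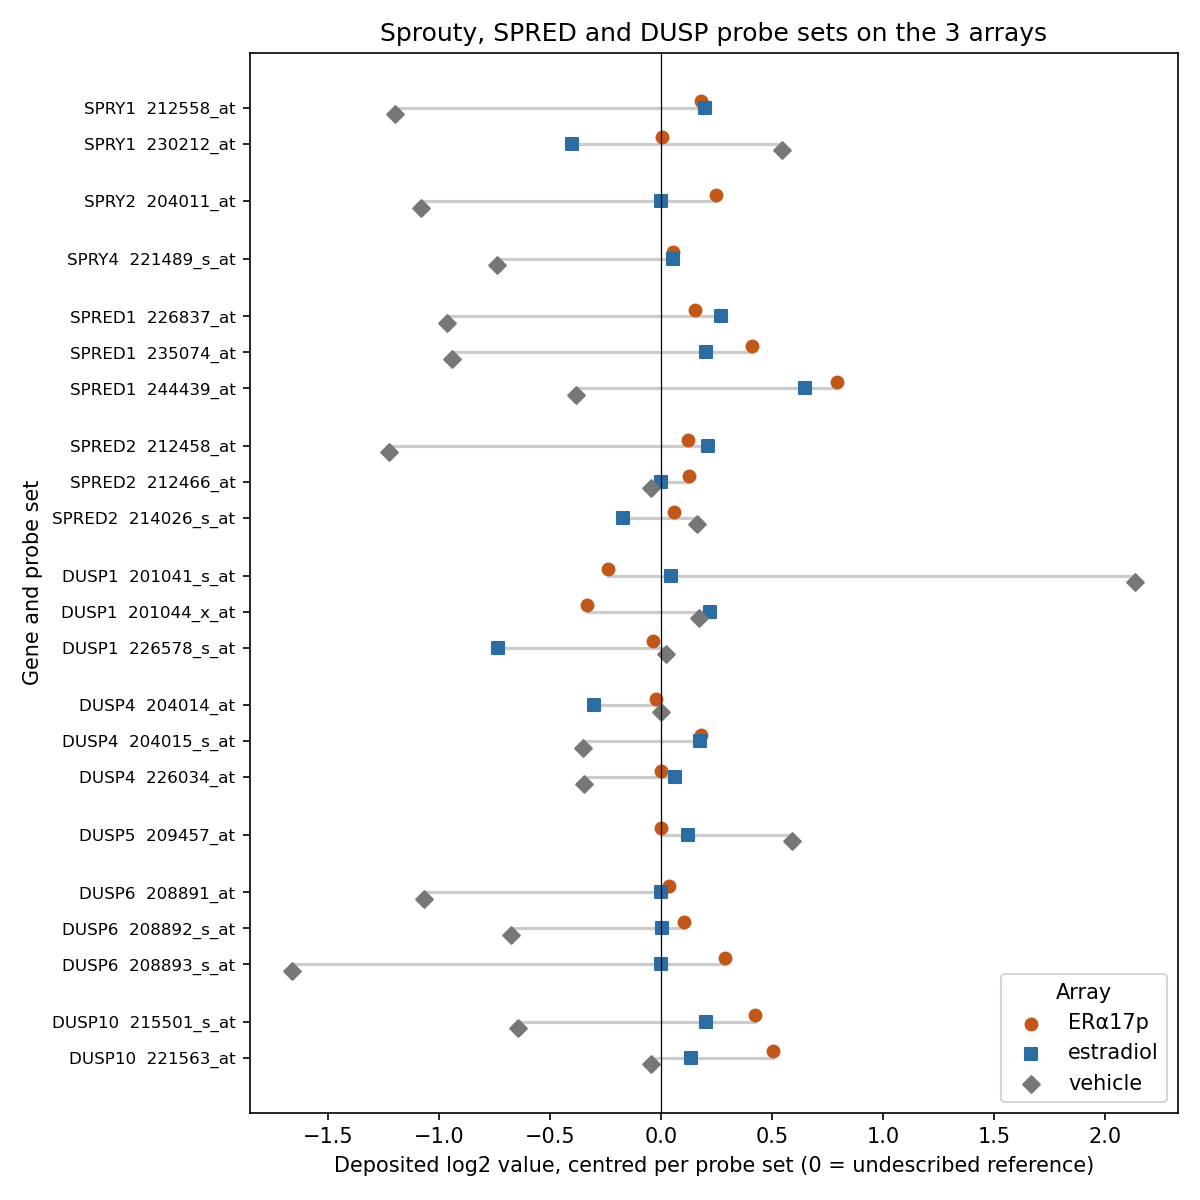
Deposited log2 values, centred per probe set, of the 22 probe sets of the 10 genes (rows) on the ERα17p (circles), estradiol (squares) and vehicle (diamonds) arrays, with 1 array per group and no error bars. The 3 SPRED1 and 3 DUSP6 probe sets have the vehicle array lowest, and the DUSP1 probe set 201041_s_at has it highest, at 2.13.

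Sprouty proteins are cytosolic and membrane-bound inhibitors of receptor tyrosine kinase signalling. SPRY2, which also binds the ubiquitin ligase CBL, had a value of 0.25 with ERα17p, 0.00 with estradiol and -1.08 with vehicle, from 1 probe set. That is 1.33 higher (2.51-fold) for ERα17p and 1.08 higher (2.12-fold) for estradiol, and 98.4% of all genes had lower differences for ERα17p and 96.8% for estradiol. SPRY4 had 0.06 with ERα17p, 0.05 with estradiol and -0.74 with vehicle, again from 1 probe set. Its differences were 0.80 for ERα17p and 0.79 for estradiol, and the treated arrays were nearly level with each other. After quantile normalisation they were 0.584 for ERα17p and 0.583 for estradiol, just inside 1.5-fold, and with arrays scaled to the same SD they were 0.573 for ERα17p and 0.566 for estradiol. SPRY1 was measured by a pair of probe sets that disagreed. Probe set 212558_at gave 0.18 with ERα17p, 0.20 with estradiol and -1.20 with vehicle. Probe set 230212_at gave 0.00 with ERα17p, -0.40 with estradiol and 0.54 with vehicle. The vehicle array was thus lowest in the first and highest in the second, and the gene medians of 0.42 for ERα17p and 0.22 for estradiol describe neither.

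SPRED proteins bind neurofibromin, the RAS inactivator, and hold it at the membrane. SPRED1, the gene altered in Legius syndrome, had 3 probe sets that put both treated arrays above the vehicle array. Probe set 226837_at gave 0.15 with ERα17p, 0.27 with estradiol and -0.97 with vehicle. Probe set 235074_at gave 0.41 with ERα17p, 0.20 with estradiol and -0.94 with vehicle, and 244439_at gave 0.79 with ERα17p, 0.65 with estradiol and -0.38 with vehicle. The vehicle value was the lowest of the 3 arrays each time, and the gene medians were 1.17 for ERα17p (2.26-fold) and 1.14 for estradiol (2.21-fold). The probe sets ranged over 0.24 for ERα17p and 0.20 for estradiol, less than the median range over genes. SPRED2, its close paralog, had gene medians of 0.17 for ERα17p and 0.05 for estradiol that hid a split. Its probe set 212458_at gave 0.12 with ERα17p, 0.21 with estradiol and -1.23 with vehicle, a difference of 1.35 for ERα17p and 1.44 for estradiol. The other two, 212466_at and 214026_s_at, lay between -0.11 and 0.17 for ERα17p and between -0.34 and 0.05 for estradiol. With the mean of the probe sets SPRED2 was at 0.38 for estradiol, and without probe sets of the _s and _x type, which can match several transcripts, it was at 0.76 for ERα17p and 0.74 for estradiol.

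DUSP6, a cytoplasmic phosphatase specific for ERK, was higher on the treated arrays in all 3 of its probe sets. Probe set 208893_s_at gave 0.29 with ERα17p, 0.00 with estradiol and -1.66 with vehicle. Probe set 208891_at gave 0.04 with ERα17p, 0.00 with estradiol and -1.07 with vehicle, and 208892_s_at gave 0.10 with ERα17p, 0.00 with estradiol and -0.68 with vehicle. The vehicle array was lowest in each, with gene medians of 1.11 for ERα17p (2.15-fold) and 1.07 for estradiol (2.10-fold). The sizes differed between probe sets, from 0.78 to 1.95 for ERα17p and from 0.68 to 1.66 for estradiol. DUSP6 and SPRED1 were 2 of the 5 members with at least 3 probe sets, and in both every probe set was at least 1.5-fold higher in the deposited values. Over all 5508 genes with at least 3 probe sets, that held for 2.00% with ERα17p and for 1.98% with estradiol.

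DUSP10, which acts on p38 and JNK and little on ERK, was measured by 215501_s_at and 221563_at. The first gave 0.42 with ERα17p, 0.20 with estradiol and -0.65 with vehicle, and the second gave 0.50 with ERα17p, 0.13 with estradiol and -0.04 with vehicle. Both probe sets had the order ERα17p, estradiol, vehicle from high to low, with gene medians of 0.81 for ERα17p and 0.51 for estradiol against vehicle. The estradiol difference was inside 1.5-fold, and without the _s probe set that for ERα17p was 0.55, also inside. DUSP4, a nuclear phosphatase, had medians of 0.35 for ERα17p and 0.41 for estradiol. Its probe sets lay between -0.02 and 0.54 for ERα17p and between -0.30 and 0.53 for estradiol, so none passed 1.5-fold.

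DUSP1, a nuclear phosphatase for p38, JNK and ERK and itself an immediate early gene, was on the low side, and that rested on its probe sets unequally. Probe set 201041_s_at gave -0.24 with ERα17p, 0.04 with estradiol and 2.13 with vehicle. Probe set 201044_x_at gave -0.33 with ERα17p, 0.22 with estradiol and 0.17 with vehicle, and 226578_s_at gave -0.04 with ERα17p, -0.73 with estradiol and 0.02 with vehicle. In the first the vehicle array stood far above both treated arrays, with differences of -2.38 for ERα17p and -2.09 for estradiol. In the others 1 treated array was close to it, at 0.05 for estradiol in 201044_x_at and at -0.06 for ERα17p in 226578_s_at. The gene medians were -0.50 for ERα17p and -0.75 for estradiol. With the mean of the probe sets the ERα17p value was -0.98. Without the probe set farthest from 0 the estradiol value was -0.35, inside 1.5-fold. DUSP5, a nuclear ERK phosphatase with 1 probe set, had 0.00 with ERα17p, 0.12 with estradiol and 0.59 with vehicle. Its difference of -0.59 for ERα17p lay at the 1.5-fold limit and that of -0.47 for estradiol inside it. After quantile normalisation DUSP5 was also inside it for ERα17p.

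At the level of probe sets, 11 of 22 were at least 1.5-fold higher with ERα17p than with vehicle, against 13.1% of all probe sets with 1 symbol, and 2 were lower, against 11.0%. For estradiol the counts were 11 higher, against 14.1%, and 3 lower, against 11.4%. The 13 member probe sets without an _s or _x suffix had a median of 1.11 for ERα17p and 1.03 for estradiol, and the 9 with one had 0.54 for ERα17p and 0.53 for estradiol.

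**Figure D2:**
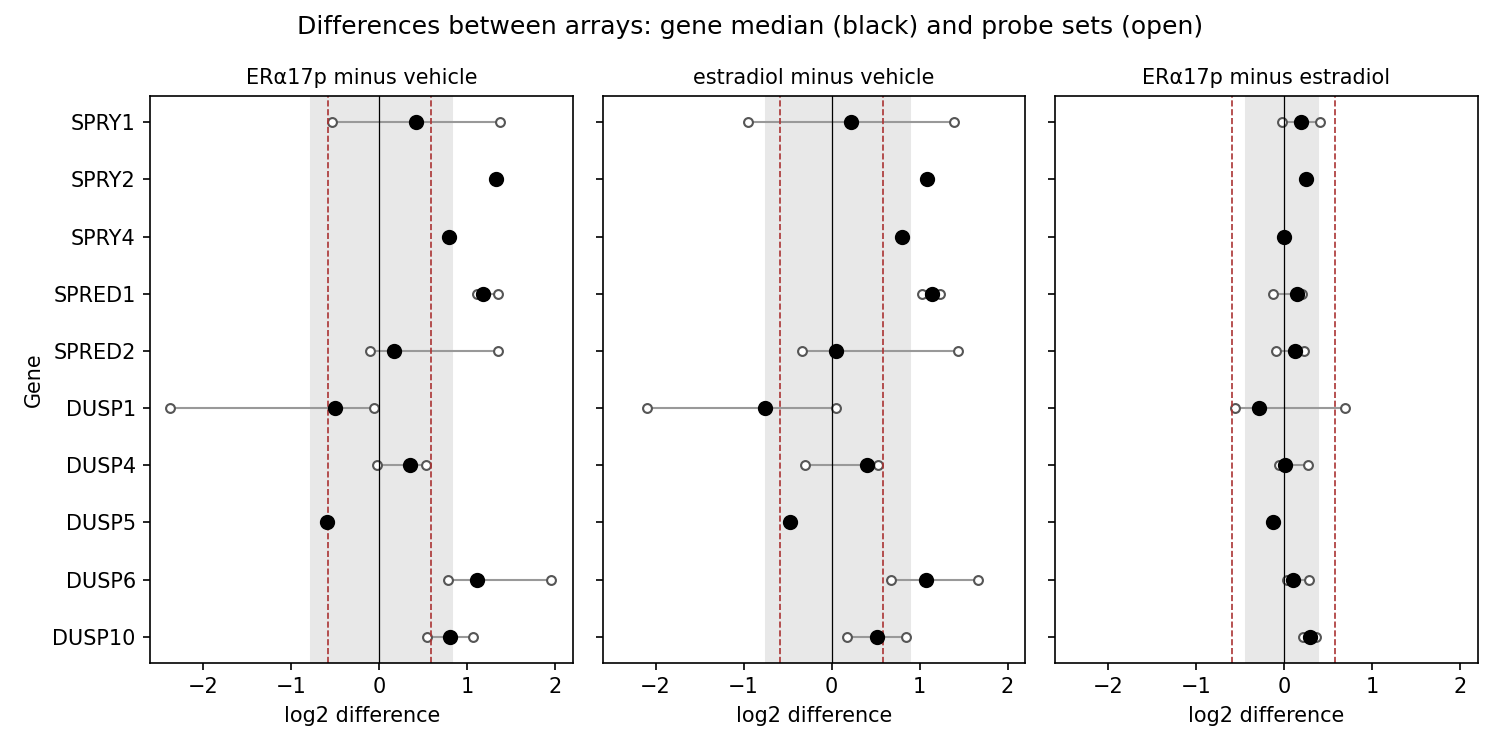
Differences in log2 units between arrays for the 10 genes (rows), with the gene median in black, each probe set as an open circle, the 1.5-fold limits dashed and the central 90% of all genes shaded. SPRY2, SPRED1 and DUSP6 lie above the shaded range in both comparisons with vehicle, and no gene median passes a dashed line in ERα17p minus estradiol.

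The direct comparison of the peptide with the hormone leaves the vehicle array out. No member passed 1.5-fold, higher (0 of 10, against 1.29% of all genes) or lower (0 of 10, against 2.04%). The members ran from -0.28 in DUSP1 to 0.29 in DUSP10, with a median of 0.11, beside -0.015 over all genes. Their median absolute difference was 0.13, and that of all genes 0.14. Of the probe sets, 1 of 22 was higher, against 3.61% of all probe sets, and 0 were lower, against 3.27%. That one was 226578_s_at of DUSP1, at -0.04 with ERα17p and -0.73 with estradiol. The other DUSP1 probe sets went the opposite way, at -0.28 (201041_s_at) and -0.55 (201044_x_at). Beside these values, the difference in 18S ribosomal RNA was 0.53, and ACTB had a 3' minus 5' value of 0.31 with ERα17p and of -0.27 with estradiol. That of GAPDH differed less, at 0.15 with ERα17p and 0.06 with estradiol. The part of RNA quality in the differences was not tested.

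Promoter sequences are shown for the 4 members that were at least 1.5-fold higher in every probe set on both treated arrays, as deposited, and for DUSP1. DUSP1 was taken as the member with the lowest probe set, although its probe sets disagreed. The sequences are the 250 bases before the annotated start in the RefSeq table of build GRCh38.p14, written 5′ to 3′ on the gene's strand. Windows of 8 of the 10 members, 13 in all, were used, and none of DUSP4 or DUSP5. Shares among member windows therefore leave out DUSP4 and DUSP5. For SPRY2 the window with the most motif matches of its 3 is printed. Capitals mark matches, on either strand, to the cyclic AMP core site TGACG, the ETS site CCGGAA, the AP-1 site TGANTCA, the oestrogen core site GGTCA and the CArG box of serum response factor.
SPRY2 (chr13:80341127-80341376, minus strand): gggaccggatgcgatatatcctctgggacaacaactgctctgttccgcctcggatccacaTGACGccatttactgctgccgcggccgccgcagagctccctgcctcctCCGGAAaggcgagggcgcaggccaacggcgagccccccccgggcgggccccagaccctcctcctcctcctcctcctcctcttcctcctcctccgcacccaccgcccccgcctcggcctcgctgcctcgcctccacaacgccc
SPRY4 (chr5:142324248-142324497, minus strand): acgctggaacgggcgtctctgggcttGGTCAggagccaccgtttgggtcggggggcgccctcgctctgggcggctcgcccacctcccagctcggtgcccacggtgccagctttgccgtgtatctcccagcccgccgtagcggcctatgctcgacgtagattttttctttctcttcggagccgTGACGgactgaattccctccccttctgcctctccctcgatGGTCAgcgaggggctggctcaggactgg
SPRED1 (chr15:38252586-38252835, plus strand): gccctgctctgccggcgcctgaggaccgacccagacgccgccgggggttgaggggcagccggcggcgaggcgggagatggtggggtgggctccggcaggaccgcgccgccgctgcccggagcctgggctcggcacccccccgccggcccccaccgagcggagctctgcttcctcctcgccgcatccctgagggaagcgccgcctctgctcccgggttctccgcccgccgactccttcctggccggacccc
DUSP6 (chr12:89352502-89352751, minus strand): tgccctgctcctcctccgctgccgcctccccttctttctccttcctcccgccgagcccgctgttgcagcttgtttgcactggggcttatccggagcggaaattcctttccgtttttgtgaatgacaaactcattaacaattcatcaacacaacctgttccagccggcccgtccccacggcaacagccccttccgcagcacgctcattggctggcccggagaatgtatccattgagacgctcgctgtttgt
DUSP1 (chr5:172771196-172771445, minus strand): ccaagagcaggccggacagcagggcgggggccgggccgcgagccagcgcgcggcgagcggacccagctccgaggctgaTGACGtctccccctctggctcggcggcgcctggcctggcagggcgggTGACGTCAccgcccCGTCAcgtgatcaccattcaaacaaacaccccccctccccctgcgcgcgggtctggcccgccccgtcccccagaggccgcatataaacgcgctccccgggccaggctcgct

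The whole cyclic AMP response element, TGACGTCA, was found in 1 of the 13 windows, that of DUSP1, at positions -125 to -118 from the start, and it holds a pair of overlapping core sites. It occurs in 1.65% of all 35116 windows of the table. The core site was found in DUSP1, SPRY2 and SPRY4, and in 21.2% of all windows. The ETS site was found in SPRY1 and SPRY2, and in 14.5% of all windows. The oestrogen core site was found in SPRY4 and DUSP10, in the sequence printed for SPRY4 near both ends, and in 32.6% of all windows. The full oestrogen response element, a core site and its reverse complement with 3 bases between, was in 0 of 13 windows and in 0.0399% of all, the AP-1 site in 0 and in 6.57%, and the CArG box in 0 and in 1.16%. The loose serum response pattern CCNNNNNNGG was in 10 of 13 windows and in 73.7% of all. These are matches of letters in short windows and say nothing of binding.

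**Figure D3:**
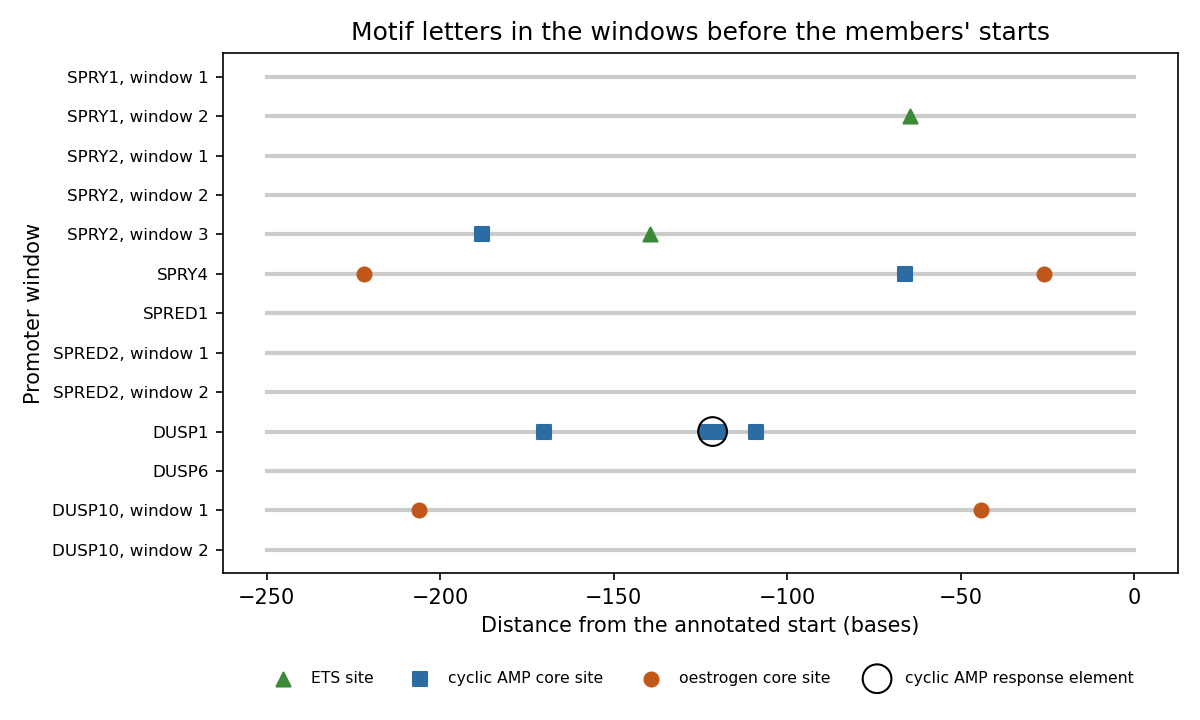
Positions of motif letters, in bases from the annotated start, in the 13 windows of 250 bases (rows) for 8 of the genes. DUSP1 has the one whole cyclic AMP response element (open circle), and SPRED1 and DUSP6 have none of the plotted motifs.

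The same comparison was made for 7 lists of genes of these pathways, which were chosen with earlier results known. Of all genes, 9.56% were higher and 8.82% lower for ERα17p, and 10.6% higher and 8.42% lower for estradiol. After quantile normalisation 1677 of 19775 genes were higher and 1489 lower for ERα17p, and 1924 higher and 1239 lower for estradiol. Genes commonly induced by ERK signalling lay on both sides of vehicle. Of 19 measured, 4 were higher by 1.5-fold or more with ERα17p and 6 lower, and with estradiol 4 were higher and 7 lower. After quantile normalisation the counts were 4 higher and 4 lower for ERα17p, and 3 higher and 5 lower for estradiol. Their medians were -0.31 for ERα17p and -0.08 for estradiol. Farthest below vehicle were immediate early transcription factors, the class of rapidly induced genes to which DUSP1 belongs. EGR1, a zinc finger factor, was at -2.58 for ERα17p and -2.89 for estradiol, with its 3 probe sets at -2.38 or below in both. The AP-1 subunits FOS, FOSB, JUN and JUNB ran from -1.35 (FOSB) to -1.11 (JUN) for ERα17p and from -1.70 (FOSB) to -1.12 (JUN) for estradiol. These sizes depended on the scaling: after quantile normalisation FOS was at -0.31 for ERα17p and -0.54 for estradiol, both inside 1.5-fold, FOSB was at -0.64 for ERα17p and -1.08 for estradiol, and EGR1 was at -1.52 for ERα17p and -1.86 for estradiol. ETV1, an ETS factor, was at 0.74 for ERα17p and 0.72 for estradiol, while its relatives ETV4 (0.03 for ERα17p and 0.17 for estradiol) and ETV5 (-0.49 for ERα17p and -0.45 for estradiol) were inside 1.5-fold. The probe sets of ETV1 ran from -0.05 to 1.01 for ERα17p and from 0.46 to 1.02 for estradiol. Those of ETV5 disagreed, from -1.39 to 0.57 for ERα17p and from -1.85 to 0.25 for estradiol. The other higher genes of the list were IER3, PHLDA1 and EPHA4. They ran from 0.68 (PHLDA1) to 0.71 (IER3) for ERα17p and from 0.67 (PHLDA1) to 0.76 (EPHA4) for estradiol. The EPHA4 probe sets disagreed in sign, from -0.25 to 1.56 for ERα17p and from -0.54 to 1.54 for estradiol. Those of PHLDA1 ran from -0.01 to 1.13 for ERα17p and from 0.28 to 1.34 for estradiol, and IER3 had 1 probe set. SPRY2, SPRED1 and DUSP6 thus lay at least 1.5-fold above vehicle, as deposited and after quantile normalisation. In both settings EGR1, FOSB, JUN and JUNB lay at least 1.5-fold below vehicle, and ETV1 and IER3 at least 1.5-fold above it. FOSB and JUNB had 1 probe set each, and the highest JUN probe set value was -0.52 for ERα17p and -0.50 for estradiol.

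The other dual-specificity phosphatases are read beside all genes, of which 18.4% were past 1.5-fold in either direction for ERα17p and 19.1% for estradiol. Of 14 measured, 0 were higher and 1 lower for ERα17p, or 1 and 1 after quantile normalisation, and 2 were higher and 0 lower for estradiol. Their medians were -0.15 for ERα17p and -0.00095 for estradiol, and those of the 5 DUSP members were 0.35 for ERα17p and 0.41 for estradiol. Other inhibitors of receptor and RAS signalling had 4 of 16 higher and 3 lower for ERα17p, and 4 higher and 2 lower for estradiol, or 4 and 1 in both after quantile normalisation. CBLB, RASA2, IER3 and ERRFI1 were on the high side, from 0.59 (ERRFI1) to 1.27 (CBLB) for ERα17p, but ERRFI1 was at 0.42 after quantile normalisation, and CBLB and RASA2 each had a probe set below 0. RGS2, which promotes inactivation of G proteins, was at -1.40 for ERα17p and -1.48 for estradiol, and TNFAIP3, a brake on NF-kB, at -0.998 for ERα17p and -1.001 for estradiol, or -0.57 in both and inside 1.5-fold after quantile normalisation. The list median for ERα17p was 0.06, or -0.0036 after quantile normalisation, so its sign depended on the scaling.

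Ligands of growth factor receptors had 3 of 13 higher and 1 lower for ERα17p, or 3 and 0 after quantile normalisation, and 5 higher and 1 lower for estradiol. Beside these and the receptors below, 9.56% of all genes were higher and 8.82% lower for ERα17p, and 10.6% and 8.42% for estradiol. VEGFA was at 1.86 for ERα17p, with its 4 probe sets between 1.60 and 2.29. TGFA, at 1.49, had probe sets between 0.15 and 1.99, the EREG value of 1.31 was the middle of 0.08 and 2.53, and PDGFA was at -0.71, or -0.32 after quantile normalisation. The receptors had 2 of 15 higher and 3 lower for ERα17p and 1 of each for estradiol, with KDR higher in both. FGFR3 was counted as lower in both, but its probe sets were at 0.0059 and -2.52 for ERα17p and at -0.41 and -2.24 for estradiol. EGFR, with 9 probe sets, was at 0.06 for ERα17p, or -0.03 after quantile normalisation, and at -0.29 for estradiol. ESR1, the gene of the oestrogen receptor alpha, was at -0.14 for ERα17p and -0.08 for estradiol.

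The RAS to ERK cascade had 3 of 14 measured members higher and 3 lower for ERα17p, and 3 higher and 2 lower for estradiol. Beside this and the p38 and JNK cascade, 9.56% of all genes were higher and 8.82% lower for ERα17p, and 10.6% and 8.42% for estradiol. RPS6KA3, an ERK-activated kinase, was farthest, at 2.23 for ERα17p and 2.18 for estradiol. After quantile normalisation the counts were 2 higher and 2 lower for ERα17p, and 2 higher and 1 lower for estradiol, or 1 of each for estradiol with arrays scaled to the same SD. MAP2K1 was higher and HRAS and RPS6KA1 lower in both comparisons, at most 0.83 from vehicle on the log2 scale, and HRAS was inside 1.5-fold after quantile normalisation, at -0.55 for ERα17p and -0.49 for estradiol. The probe sets of ARAF disagreed in sign, at -0.36 and 1.69 for ERα17p. The p38 and JNK cascade, which holds the substrates of DUSP10, had 4 of 12 higher and 2 lower for ERα17p, or 2 and 2 after quantile normalisation. For estradiol it had 2 higher and 1 lower, or 2 and 0. MAP2K4, which activates JNK, was at 1.06 in both comparisons, and MAP3K7 and MAPK12 had probe sets on both sides of 0.

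**Figure D4:**
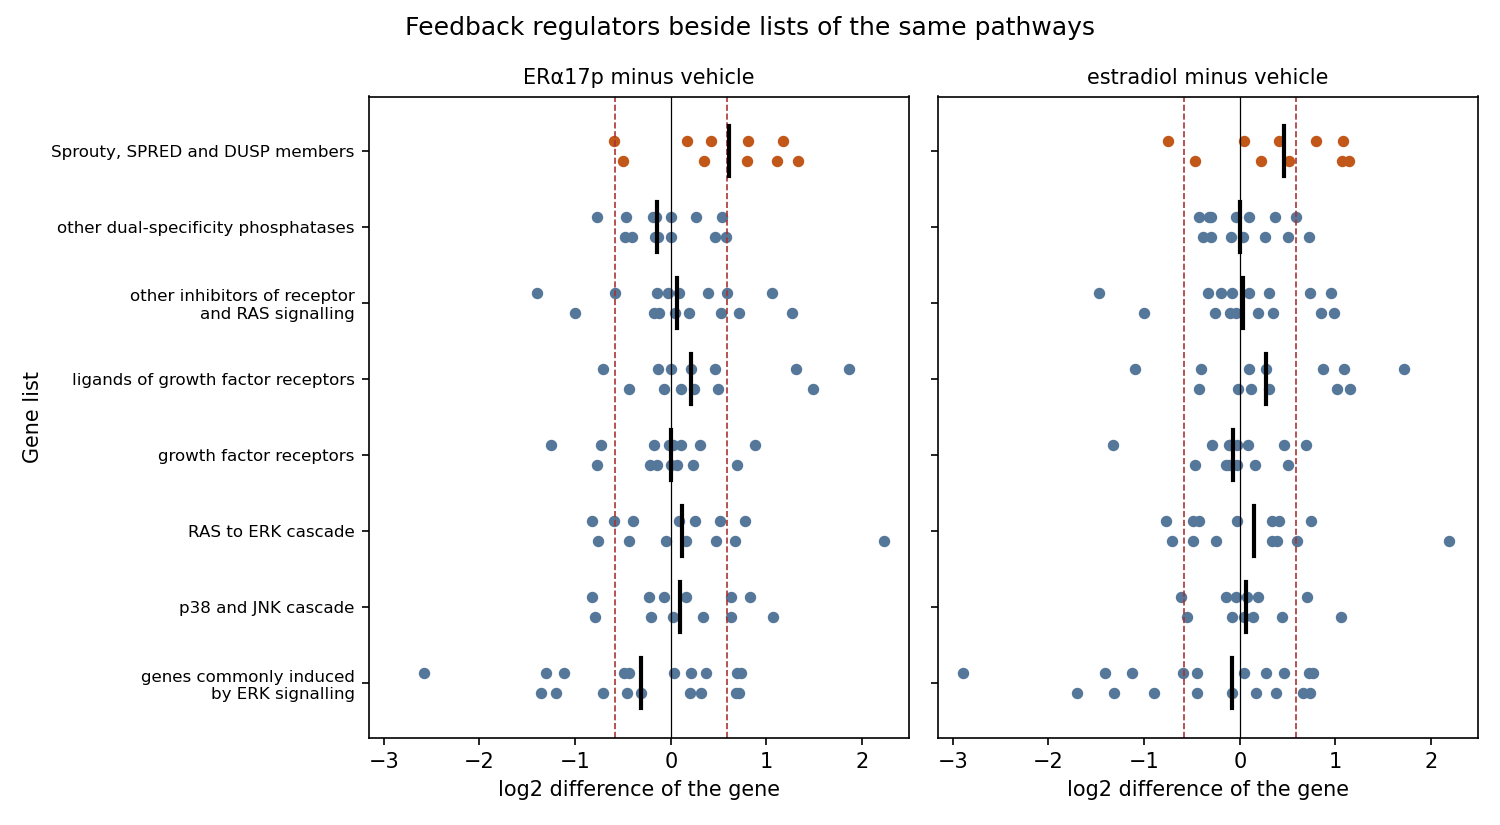
Differences from vehicle in log2 units of each gene in the 10 members (top row) and in 7 lists of the same pathways, with the list median as a black bar and the 1.5-fold limits dashed. The median bar of the members is at 0.61 for ERα17p and 0.46 for estradiol, and that of the genes commonly induced by ERK signalling at -0.31 for ERα17p and -0.08 for estradiol.

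With 3 arrays a gene's pattern is a pair of differences, and many genes share any pair. Among 10516 other genes with at least 2 probe sets, CCNJ (1.34 for ERα17p and 1.08 for estradiol), SKIC3 (1.31 for ERα17p and 1.09 for estradiol) and CCNE2 (1.36 for ERα17p and 1.08 for estradiol) were nearest to SPRY2 by Euclidean distance, and 17 lay within 0.1. Nearest to the median of the members were BICC1 (0.61 for ERα17p and 0.46 for estradiol), CFAP68 (0.60 for ERα17p and 0.46 for estradiol) and CEP15 (0.60 for ERα17p and 0.46 for estradiol), with 118 within 0.1.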

How the data were processed

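Total RNA from 3 cultures was labelled and hybridised to 1 array each. The submitters' processing notes name RMA without a version, and the deposited values are taken as log2 because RMA gives that scale. The deposited table had in addition been centred per probe set by an unstated step: each array had a median of 0. Of 54675 probe sets, 41097 had 1 symbol in the platform annotation, 1801 had several and were left out, and 11777 were unnamed. The 10 symbols were current in RefSeq by Entrez identifier. Differences were taken per probe set and summarised per gene by the median, with pandas 2.3.3 and numpy 2.4.6, and tested on simulated data. No model was fitted.

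All 10 members are named with every probe set. From each of 7 pathway lists, up to 6 genes at least 1.5-fold from vehicle in 1 direction on both treated arrays are named, plus EGR1, FOS, ETV4, ETV5, EGFR and ESR1 always. The 3 nearest genes are named too. The members and lists were chosen with earlier results of these data known. Alternatives changed the probe set summary, probe sets used, scaling, fold and reference. The strict CArG box was added to the motifs after the data were seen.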

Additional observations from a re-analysis of the deposited data

How the results depend on the processing

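Each group had 1 array, so the cause of each change with the setting was not tested, and no replicate could be left out. No paired analysis was possible because each group holds 1 sample. A filter on low values was not run, since centred values hold no level. The farthest probe set of a gene is the one whose difference lay farthest from 0, not from the gene's other probe sets. The median of the 10 members stayed above 0 for both treatments under the mean of probe sets, removal of the farthest probe set, probe sets without the _s or _x suffix (8 members left), quantile normalisation and scaling to the same SD, between 0.44 and 0.65 for ERα17p and between 0.37 and 0.48 for estradiol.

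With the deposited centre in place of the vehicle array the medians were 0.097 for ERα17p and 0.048 for estradiol, the counts were 0 higher and 0 lower for both, and DUSP1 was at 0.042 for estradiol, with the sign turned. The full set of arrays behind that centre is unknown. At 2-fold, 3 members were higher and 0 lower for ERα17p, and 3 higher and 0 lower for estradiol. The count of lower members for ERα17p was 2 with the mean of probe sets, 0 after quantile normalisation and 0 after scaling to the same SD. For estradiol it was 0 without the farthest probe set and 0 without _s and _x probe sets, which left DUSP1 out. Over single members, 45 of 58 values for ERα17p, 39 of 58 for estradiol and 47 of 48 in the direct comparison moved by less than the median SD between probe sets of a gene. Part of these values could not move, so the counts are no measure of stability. The mean and the removal of the farthest probe set leave genes with fewer than 3 probe sets unchanged. SPRY1, SPRY2, SPRED1 and DUSP5 have no _s or _x probe set to leave out.

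Over all 19775 genes, 661 were higher and 491 lower for ERα17p at 2-fold, against 1891 and 1745 at 1.5-fold. For estradiol 779 were higher and 432 lower at 2-fold, against 2104 and 1665 at 1.5-fold. With the deposited centre the counts at 1.5-fold were 98 and 125 for ERα17p and 254 and 102 for estradiol. In the direct comparison they were 255 and 404, or 643 and 899 after quantile normalisation, 707 and 939 after scaling to the same SD, and 7 and 42 at 2-fold.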

Other observations

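A transcript named for its place in an intron of SPRY4, SPRY4-IT1, went the other way from its host gene. It was chosen after its values were seen. Probe set 1566968_at gave -0.01 with ERα17p, -0.53 with estradiol and 1.58 with vehicle, and 1566967_at gave 0.00 with ERα17p, 0.07 with estradiol and 0.48 with vehicle. Both had the vehicle array highest, with differences of -1.58 and -0.48 for ERα17p and of -2.11 and -0.41 for estradiol. SPRY4 itself was at 0.80 for ERα17p and 0.79 for estradiol.

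The pseudogene DUSP5P1, also chosen after its values were seen, was at -0.57 for ERα17p and -0.82 for estradiol, from 1 probe set, beside -0.59 for ERα17p and -0.47 for estradiol in DUSP5. Probe sets of a gene and its pseudogene may share sequence, so the signal of either cannot be assigned with certainty.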
